A study of Mus musculus with 12 samples.

Results

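Collagen chains and the proteins that modify, fold, trim, and cross-link them were followed in mouse embryonic fibroblasts exposed to deazaneplanocin A (DZ), adenine, or S-adenosylmethionine (SAM). The genes are all protein-coding rows of the deposited expression table named as collagen chains (Col, a type number, a, and a chain number), together with P4ha1 to P4ha3, Plod1 to Plod3, Lox, Loxl1 to Loxl4, Serpinh1, Adamts2, Bmp1, and Pcolce. This gave 38 genes of the 12591 in the table, 23 of them collagen chains and 15 enzymes, an enhancer of an enzyme, or a chaperone. GENCODE vM39 annotates 44 collagen chain genes, and the other 21 were not in the table, which the authors limited to genes with a CPM (reads scaled to a common library size) of at least 1 in all samples. A collagen that was silent in any group could therefore not be seen.

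The cells were immortalized fibroblasts from embryos of heterozygous PER2::LUC knock-in mice (strain C57 PER2::LUC), whose clock protein PER2 carries luciferase. SAM is the methyl donor of most methyltransferases, adenine is a purine base, and DZ inhibits AHCY, the enzyme that clears the product of methyl transfer. Confluent cells were kept for 24 h in medium with DZ at 10 μM, with adenine at 1 mM, or with SAM at 1 mM, and every dish, those of the control group (CTL) included, also received 3.3 mM HCl. Polyadenylated RNA of 3 dishes per group was sequenced. The dishes are not separate animals or lines, so p-values measure the spread between dishes of the same cells.

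Collagens are triple helices of chains in which glycine recurs at a fixed interval (Gly-X-Y). In the endoplasmic reticulum, prolyl and lysyl hydroxylases modify the chains and the chaperone HSP47, the product of Serpinh1, binds the folded helix. Outside the cell, proteinases cut off the propeptides of fibrillar procollagens and the lysyl oxidase family cross-links the fibrils. Fibroblasts are a main source of the fibrillar types I, III, and V and of the type VI filaments around them.

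The 12 libraries held between 45649534 and 56789090 reads on the listed genes. No gene had fewer than 46 reads in any of them, a minimum set by the filter of at least 1 CPM in all samples. All 9 fibroblast markers examined were in the table, none of 6 endothelial or 6 epithelial markers was, and of 6 leukocyte markers Cd68 alone was listed. Levels of the fibroblast markers were not constant: their summed level was 14400 to 14500 CPM in CTL, 17100 to 17600 under DZ, 11800 to 12100 under adenine, and 7390 to 7890 under SAM. Most of that sum was Fn1, which fell under adenine and SAM, while 6 of the 9 markers rose under adenine and 8 rose under SAM (median log2 fold changes 0.39 and 0.47). Cd68 was at 3.03 to 4.0 CPM in CTL, 2.73 to 3.78 under DZ, 10.8 to 12.3 under adenine, and 15.6 to 17.7 under SAM. The summed level of the 3 listed smooth muscle markers (Acta2, Tagln, and Cnn1, of 5 examined) was 3760 to 3870 CPM in CTL, 2860 to 2940 under DZ, 3340 to 3440 under adenine, and 2520 to 2710 under SAM. These 3 markers did not move alike: all fell under DZ, Acta2 fell under adenine (-0.32) whereas Tagln and Cnn1 rose (both 0.31), and under SAM Cnn1 rose (0.28) and the others fell. The part of these shifts in the collagen results was not tested. In RNA from whole dishes, fewer cells of a type and less RNA per cell cannot be told apart.

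Most of the 38 genes were higher under adenine, and many were higher under DZ or SAM. A gene was called when its limma p, after Benjamini-Hochberg adjustment across the 12591 genes, was under 0.01. Under adenine 33 of the 38 genes rose and 3 fell, when 30.6% of all genes rose and 31.0% fell. Under DZ 19 rose and 3 fell, against 22.6% and 23.4% of all genes. Under SAM 24 rose and 8 fell, against 33.7% and 35.7%. Genes of the list were thus called in either direction in 22 cases under DZ (45.9% of all genes), 36 under adenine (61.6%), and 32 under SAM (69.3%), and the called genes of the list lay mainly on the higher side, whereas those of the whole table were split almost evenly.

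Without regard to p, all 3 treated dishes lay above all CTL dishes for 19 of the 38 genes under DZ (31.8% of all genes), 33 under adenine (37.0%), and 24 under SAM (37.6%), and below them for 6 (33.6%), 4 (37.7%), and 8 (40.0%).

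The sizes of the changes are given as a description. The median log2 fold change of the 38 genes was 0.16 under DZ, 0.72 under adenine, and 0.36 under SAM, beside medians over all genes of -0.0057, -0.0030, and -0.015. For the 23 collagen chains alone the medians were 0.22, 1.06, and 0.59, and for the 15 other genes they were 0.10, 0.48, and 0.15. Rises of at least 1 log2 unit were found for 13 of the 38 genes under adenine (5.81% of all genes) and for 11 under SAM (7.46%). Falls of that size were found for Col11a2 and Loxl4, under adenine (4.37% of all genes) and under SAM (5.62%). Under DZ there was 1 such rise, that of Col8a1 (1.18% of all genes). The comparisons share the CTL dishes, and DZ was given at another dose than adenine and SAM, so its values are set beside theirs without a test.

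**Figure D1:**
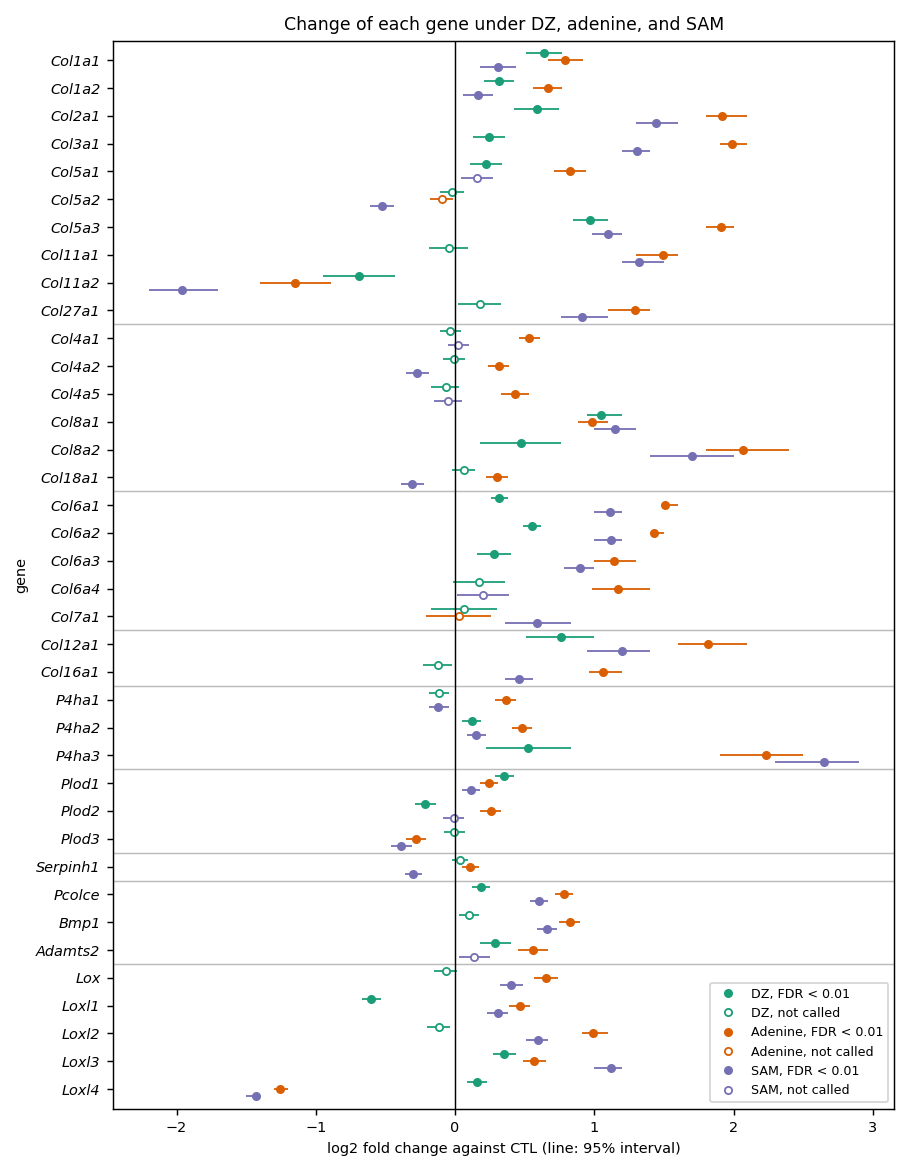
Log2 fold change of each of the 38 genes against CTL (x axis), with genes by role (y axis), circles for the estimates in DZ, adenine, and SAM dishes, filled when called at an FDR of 0.01, and lines for 95% intervals from limma. Estimates under adenine lie to the right of 0 for all genes but Col5a2, Col11a2, Plod3, and Loxl4.

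**Figure D2:**
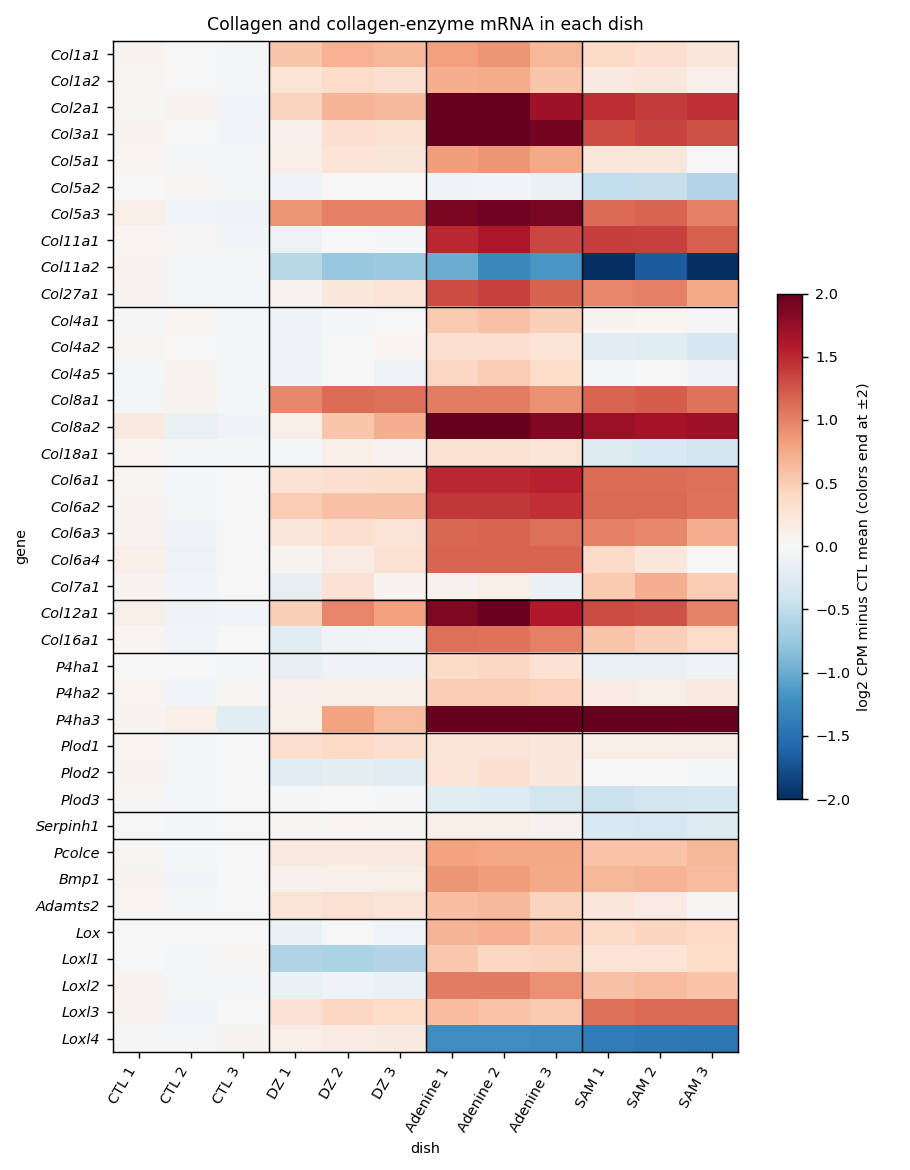
Level of each gene (rows, grouped by role) in each of the 12 dishes (columns), as log2 CPM minus the CTL mean, in a color scale that ends at ±2. Col2a1, Col3a1, Col8a2, and P4ha3 are dark red in the adenine dishes, whereas Col11a2 and Loxl4 are blue in all adenine and SAM dishes.

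Stretches of 120 bases before the start sites of 6 genes are shown for genes on which the comparisons turn: the type I collagen pair, the neighbours Col3a1 and Col5a2 with unlike responses, P4ha3 with the largest rise, and Loxl4 with the largest fall under adenine. They were read from the GRCm39 genome at the start of the canonical GENCODE vM39 transcript, 5′ to 3′ on the gene's strand. The positions are chr11:94826930-94827049 (+) for Col1a1, chr6:4505373-4505492 (+) for Col1a2, chr1:45350578-45350697 (+) for Col3a1, chr1:45542443-45542562 (-) for Col5a2, chr7:99934566-99934685 (+) for P4ha3, and chr19:42601253-42601372 (-) for Loxl4. Capitals mark the GC box GGGCGG, the CCAAT box, and TATAAA, each searched on both strands, so that ATTGG is a CCAAT box on the other strand. No annotated exon touches any of these stretches.
Col1a1: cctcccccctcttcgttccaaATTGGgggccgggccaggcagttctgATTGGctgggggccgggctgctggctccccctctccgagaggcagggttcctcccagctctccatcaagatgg
Col1a2: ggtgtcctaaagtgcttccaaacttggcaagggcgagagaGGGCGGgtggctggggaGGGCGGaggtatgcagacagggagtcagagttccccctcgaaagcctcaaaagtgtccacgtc
Col3a1: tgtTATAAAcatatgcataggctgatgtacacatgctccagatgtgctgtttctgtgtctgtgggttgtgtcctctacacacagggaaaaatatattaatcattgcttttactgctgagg
Col5a2: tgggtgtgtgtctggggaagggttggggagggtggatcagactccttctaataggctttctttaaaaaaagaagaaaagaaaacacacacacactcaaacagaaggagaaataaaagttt
P4ha3: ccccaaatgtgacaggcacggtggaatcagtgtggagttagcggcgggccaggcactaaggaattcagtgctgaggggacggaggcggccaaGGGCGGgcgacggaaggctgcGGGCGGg
Loxl4: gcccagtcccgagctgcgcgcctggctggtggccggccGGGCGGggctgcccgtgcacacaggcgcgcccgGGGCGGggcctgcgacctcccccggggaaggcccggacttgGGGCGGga

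In the 250 bases before the start, a GC box was found for 25 of the 38 genes (65.8%, against 51.6% of 10948 protein-coding genes in the table), a CCAAT box for 12 (31.6% against 36.8%), and TATAAA for 3 (7.9% against 6.9%). In that window Col3a1 held 0 CpG pairs and Col5a2 held 1, whereas Col1a1 held 7, Col1a2 12, P4ha3 14, and Loxl4 27, with a median of 13 over all promoters. A match is a description of the letters and not a binding site.

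Type I collagen, the main fibril protein of skin, bone, and tendon, is built from the products of Col1a1 and Col1a2, and both genes rose in the 3 treatments. Col1a1 was at 11.74, 11.67, and 11.64 log2 CPM in the CTL dishes, 12.23, 12.38, and 12.35 under DZ, 12.50, 12.57, and 12.35 under adenine, and 12.07, 12.02, and 11.90 under SAM. Every treated dish lay above every CTL dish. The log2 fold changes were 0.64 ± 0.059 (SE, n = 3) under DZ, 0.79 ± 0.059 under adenine, and 0.31 ± 0.059 under SAM (limma adjusted p = 3.26e-07, 8.69e-09, and 1.99e-04). Col1a2 was at 12.16, 12.15, and 12.12 log2 CPM in CTL, 12.41, 12.50, and 12.48 under DZ, 12.86, 12.88, and 12.69 under adenine, and 12.34, 12.36, and 12.24 under SAM. Again no treated dish overlapped with CTL, and the log2 fold changes were 0.32, 0.67, and 0.17. The rise of Col1a2 under SAM (limma adjusted p = 0.00669) was no longer called without CTL 1, CTL 2, CTL 3, SAM 1, or SAM 2 (log2 fold change 0.14 to 0.18). That call was also lost with no variance trend and with median centring (0.13).

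Col3a1 and Col5a2 lie beside each other on chromosome 1 and are transcribed toward each other from start sites 191743 bases apart, and their levels did not move together. Col3a1 encodes type III collagen, which joins type I in the fibrils of elastic tissues. Its log2 CPM was 8.92, 8.86, and 8.81 in CTL, 8.96, 9.20, and 9.16 under DZ, 10.86, 10.92, and 10.78 under adenine, and 10.17, 10.21, and 10.13 under SAM. The adenine dishes were the highest and the SAM dishes came next, with no overlap between groups. This was a 3.96-fold rise under adenine and a 2.48-fold rise under SAM (log2 fold changes of 1.99 ± 0.053 and 1.31 ± 0.053, limma adjusted p = 9.56e-14 and 3.68e-12), and a log2 fold change of 0.24 under DZ. Col5a2, a chain of type V collagen, was at 11.69, 11.70, and 11.66 log2 CPM in CTL, 11.61, 11.69, and 11.68 under DZ, 11.59, 11.63, and 11.54 under adenine, and 11.18, 11.22, and 11.09 under SAM. Its DZ dishes overlapped with CTL, its adenine dishes were just below them without being called (log2 fold change -0.097, limma adjusted p = 0.0383, called without SAM 3 or with median centring, and -0.035 with plain read totals), and its SAM dishes were lower (-0.52 ± 0.039, limma adjusted p = 6.49e-09).

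**Figure D3:**
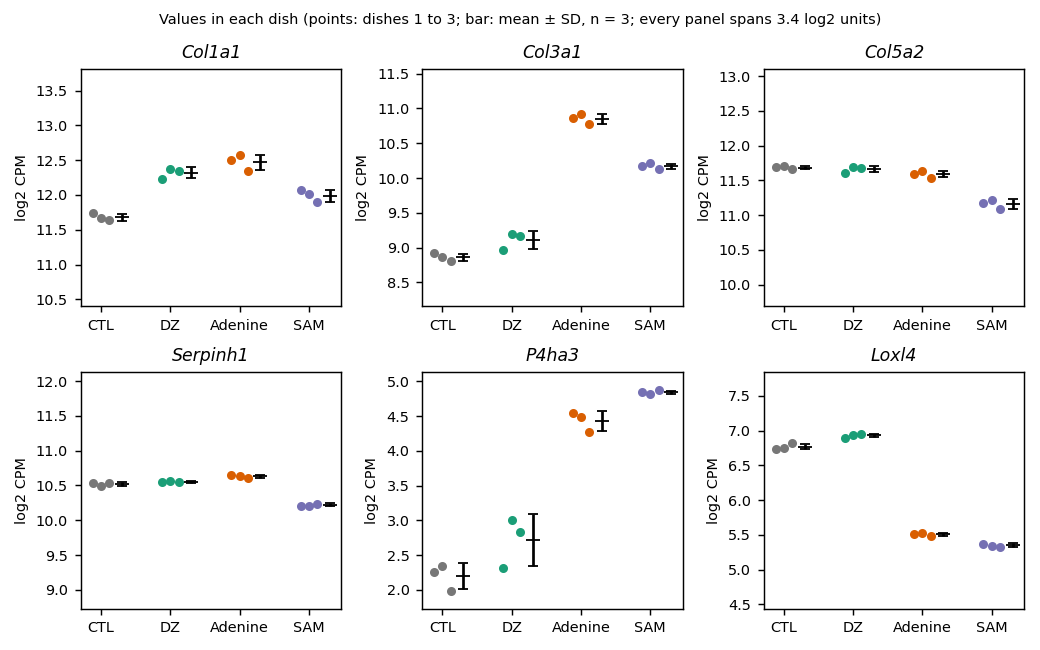
Log2 CPM (y axes, each spanning 3.4 log2 units) of Col1a1, Col3a1, Col5a2, Serpinh1, P4ha3, and Loxl4 in the 3 dishes of each group (points), with the mean ± SD beside them (bars). Col5a2 and Serpinh1 are lowest in the SAM dishes, whereas Col3a1 and P4ha3 are far above CTL in adenine and SAM dishes.

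The other chains of type V collagen, which seeds fibril assembly and sets fibril width, behaved unlike Col5a2. Col5a3 was at 6.64, 6.45, and 6.41 log2 CPM in CTL, 7.39, 7.51, and 7.50 under DZ, 8.38, 8.45, and 8.40 under adenine, and 7.63, 7.66, and 7.51 under SAM. It was the fibril-forming gene with the largest rise under DZ, with log2 fold changes of 0.97, 1.91, and 1.10 in the order DZ, adenine, and SAM. Col5a1 rose by 0.22 under DZ and 0.82 under adenine on the log2 scale, and its value of 0.16 under SAM was not called. It was called under SAM without SAM 3, with a replicate block, and with plain read totals (0.28). The DZ call of Col5a1 was lost without CTL 2, CTL 3, DZ 2, or DZ 3.

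Genes best known from cartilage were expressed at low levels and were split. Col2a1, the chain of type II collagen, was at 5.27, 5.30, and 5.19 log2 CPM in CTL, 5.69, 5.93, and 5.90 under DZ, 7.24, 7.31, and 6.95 under adenine, and 6.72, 6.65, and 6.71 under SAM, above CTL in every treated dish. Col11a1, a chain of type XI collagen in the core of cartilage fibrils, had log2 fold changes of 1.49 under adenine and 1.32 under SAM, both called, and -0.045 under DZ, not called. Col11a2, its partner chain, went the other way: it was at 3.26, 3.16, and 3.17 log2 CPM in CTL, 2.63, 2.43, and 2.45 under DZ, 2.20, 1.90, and 2.02 under adenine, and 1.05, 1.52, and 1.14 under SAM. Groups did not overlap, and Col11a2 was the only fibril-forming gene that fell under DZ and adenine and the gene of the list with the largest fall under SAM (log2 fold change -1.96 ± 0.12, limma adjusted p = 7.54e-10). Col27a1, a fibrillar chain also found in cartilage, had log2 fold changes of 1.29 under adenine, 0.91 under SAM, and 0.18 under DZ, the last not called. Of 5 cartilage markers, Acan and Sox9 were listed, and their summed level was 33.6 to 36.2 CPM in CTL, 54.4 to 57.9 under DZ, 106 to 132 under adenine, and 99.8 to 111 under SAM. Matn1, Matn3, and Comp were not in the table. Of 5 bone markers Runx2 alone was listed, and it was not called in any comparison. The part of these shifts in the Col2a1 and Col11a1 results was not tested.

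Among the 10 fibril-forming genes as a group, 6 rose and 1 fell under DZ, 8 rose and 1 fell under adenine, and 7 rose and 2 fell under SAM. The falls under SAM were those of Col5a2 and Col11a2. Of all genes, 22.6% rose and 23.4% fell under DZ, 30.6% and 31.0% under adenine, and 33.7% and 35.7% under SAM.

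The 6 network-forming and basement membrane collagens all rose under adenine, where 30.6% of all genes rose. Under SAM 2 rose, 2 fell, and 2 were not called, shares close to the 33.7% and 35.7% of all genes. Type IV collagen is the sheet of basement membranes, and the genes of its chains Col4a1 and Col4a2 are read in opposite directions from start sites 316 bases apart on chromosome 8. Col4a1 was at 9.01, 9.07, and 9.0 log2 CPM in CTL, 8.95, 9.01, and 9.02 under DZ, 9.56, 9.61, and 9.51 under adenine, and 9.09, 9.07, and 8.99 under SAM. Its adenine dishes stood above all others (log2 fold change 0.53), and its SAM value of 0.024 was not called, except with plain read totals (0.15). Col4a2 was at 8.99, 8.98, and 8.94 log2 CPM in CTL, 8.89, 8.98, and 9.01 under DZ, 9.29, 9.31, and 9.25 under adenine, and 8.74, 8.73, and 8.63 under SAM. It rose by 0.32 under adenine and fell by 0.27 on the log2 scale under SAM (limma adjusted p = 1.47e-06 and 6.12e-06). Neither was called under DZ. Annotated transcripts of the 2 genes overlap at their starts, on opposite strands. Col4a5, on the X chromosome, was called under adenine only (0.43), and Col4a6, its neighbour, was not in the table.

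Col18a1, the source of the fragment endostatin, was at 8.67, 8.60, and 8.61 log2 CPM in CTL, 8.60, 8.77, and 8.70 under DZ, 8.94, 8.94, and 8.91 under adenine, and 8.36, 8.33, and 8.27 under SAM. Relative to CTL the adenine dishes were higher (log2 fold change 0.30) and the SAM dishes lower (-0.31). Type VIII collagen forms hexagonal lattices in the cornea and around vessels, and its genes rose in every treatment, although the DZ call of Col8a2 was fragile. Col8a1 was at 4.84, 4.94, and 4.83 log2 CPM in CTL, 5.83, 5.98, and 5.97 under DZ, 5.89, 5.89, and 5.79 under adenine, and 6.04, 6.08, and 5.96 under SAM. These were fold changes of 2.08, 1.98, and 2.22 without overlap with CTL (limma adjusted p = 2.9e-10, 8.64e-11, and 8.47e-12). Col8a2 was at 2.59, 2.25, and 2.32 log2 CPM in CTL, 2.52, 2.94, and 3.11 under DZ, 4.49, 4.64, and 4.24 under adenine, and 4.12, 4.06, and 4.08 under SAM. Its DZ dishes overlapped with CTL. The DZ call (limma adjusted p = 0.00748) was lost without CTL 2, CTL 3, DZ 2, DZ 3, Adenine 1, or SAM 2, with log2 fold changes of 0.35 to 0.47. It was also lost with no variance trend, robust empirical Bayes, voom, a model of the groups compared alone, or a replicate block (limma adjusted p = 0.0106 to 0.0281).

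Type VI collagen, the beaded filament that links cells to the fibrils around them, had 3 chains that rose in every treatment. Col6a1 was at 10.26, 10.21, and 10.23 log2 CPM in CTL, 10.52, 10.56, and 10.58 under DZ, 11.74, 11.73, and 11.77 under adenine, and 11.35, 11.35, and 11.33 under SAM. Col6a2, its neighbour on chromosome 10, was at 9.03, 8.96, and 8.97 log2 CPM in CTL, 9.48, 9.57, and 9.56 under DZ, 10.40, 10.40, and 10.44 under adenine, and 10.11, 10.12, and 10.06 under SAM. The 4 groups did not overlap for either gene and stood in the same order. Col6a1 rose 2.86-fold and Col6a2 2.70-fold under adenine, and they rose 2.16-fold and 2.17-fold under SAM (limma adjusted p of Col6a1 7.27e-15 and 2.12e-14). Col6a3 had log2 fold changes of 0.28, 1.14, and 0.90 in the order DZ, adenine, and SAM, all called. Col6a4 was called under adenine (1.17) and had an uncalled 0.20 under SAM, which was called without SAM 3 (0.29) and with plain read totals (0.32). Col7a1, the anchoring fibril collagen beneath epithelia, was called under SAM alone (0.59).

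Of the fibril-associated collagens, which coat the surface of fibrils, Col12a1 and Col16a1 were listed. Col12a1 was at 8.07, 7.88, and 7.90 log2 CPM in CTL, 8.42, 8.92, and 8.77 under DZ, 9.82, 9.92, and 9.55 under adenine, and 9.26, 9.22, and 8.95 under SAM. All treated dishes were above CTL, and the log2 fold changes were 0.76, 1.82, and 1.20. Col16a1 rose by 1.06 (adenine) and 0.46 (SAM), and its value of -0.12 under DZ was not called.

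The prolyl 4-hydroxylase subunits, whose product hydroxyproline keeps the helix stable at body temperature, included the gene with the largest rise of the list. P4ha3 was at 2.26, 2.34, and 1.99 log2 CPM in CTL, 2.31, 3.01, and 2.84 under DZ, 4.54, 4.48, and 4.27 under adenine, and 4.84, 4.82, and 4.87 under SAM. Its rise was 4.71-fold under adenine and 6.26-fold under SAM (limma adjusted p = 1.21e-09 and 1.06e-10). DZ 1 lay among the CTL dishes. The DZ call (log2 fold change 0.52, limma adjusted p = 0.00557) was lost without CTL 1, CTL 3, DZ 2, or DZ 3, with values of 0.38 to 0.55. It was also lost with no variance trend, robust empirical Bayes, voom, or a model of the groups compared alone (limma adjusted p = 0.0128 to 0.0176). The more abundant P4ha1 was at 7.69, 7.68, and 7.66 log2 CPM in CTL, 7.51, 7.58, and 7.59 under DZ, 8.06, 8.10, and 7.97 under adenine, and 7.54, 7.54, and 7.59 under SAM. It rose by 0.37 under adenine on the log2 scale, and its value under SAM was -0.12 (limma adjusted p = 0.00602). Its DZ dishes all lay below CTL, with an uncalled -0.11 (limma adjusted p = 0.0113). The DZ value was called with robust empirical Bayes, median centring, a model of the groups compared alone, or an FDR of 0.05. It was also called without Adenine 2, Adenine 3, or SAM 3. The SAM call was lost without CTL 1, CTL 2, CTL 3, SAM 1, or SAM 2 and with no variance trend. The SAM value was 0.0035 when plain read totals set the scale. P4ha2 rose by 0.12, 0.48, and 0.15 in the order DZ, adenine, and SAM, and its DZ call was lost without CTL 2, CTL 3, DZ 2, or DZ 3.

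Lysyl hydroxylases prepare lysines for sugars and cross-links, and their 3 genes each had another pattern. Plod1 was at 6.54, 6.47, and 6.51 log2 CPM in CTL, 6.84, 6.90, and 6.84 under DZ, 6.76, 6.76, and 6.73 under adenine, and 6.61, 6.62, and 6.63 under SAM (log2 fold changes 0.35, 0.25, and 0.11). The last was not called without CTL 2 (0.095), with median centring (0.075), or in a model of the groups compared alone. Plod2, which hydroxylates the ends of the chains, was at 6.23, 6.13, and 6.17 log2 CPM in CTL, 5.95, 5.97, and 5.96 under DZ, 6.42, 6.49, and 6.38 under adenine, and 6.17, 6.18, and 6.14 under SAM. Its DZ dishes were below CTL, its adenine dishes were above it, and its SAM dishes were mixed with it (log2 fold change -0.0089, and 0.11 when plain read totals set the scale). Plod3, an enzyme that also adds sugars, was at 7.21, 7.16, and 7.19 log2 CPM in CTL, 7.17, 7.20, and 7.17 under DZ, 6.95, 6.93, and 6.83 under adenine, and 6.76, 6.80, and 6.84 under SAM. It fell by 0.28 under adenine and 0.39 under SAM on the log2 scale (limma adjusted p = 2.75e-06 and 5.16e-08).

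Serpinh1, the gene of HSP47, changed little under DZ and adenine and fell under SAM. It was at 10.53, 10.49, and 10.53 log2 CPM in CTL, 10.55, 10.56, and 10.55 under DZ, 10.65, 10.64, and 10.60 under adenine, and 10.21, 10.20, and 10.24 under SAM. The SAM dishes were the lowest, a log2 fold change of -0.30 ± 0.027 (limma adjusted p = 5.6e-08), while most fibril-forming genes were above CTL in the same dishes. The value under adenine was 0.11 (limma adjusted p = 0.00229), and this call was lost without Adenine 1, Adenine 2, or CTL 2 (values of 0.095 to 0.10) and with median centring (0.057).

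The 3 genes of propeptide removal rose under adenine, where 30.6% of all genes rose. Bmp1 encodes the proteinase that cuts the C-propeptide, Pcolce its enhancer, and Adamts2 the proteinase that cuts the N-propeptide. Bmp1 was at 7.76, 7.66, and 7.71 log2 CPM in CTL, 7.79, 7.81, and 7.83 under DZ, 8.59, 8.54, and 8.47 under adenine, and 8.38, 8.39, and 8.34 under SAM. Adenine and SAM dishes stood well above CTL (0.83 and 0.66 as log2 fold changes), and the DZ value of 0.10 was not called, except with plain read totals (0.13) or an FDR of 0.05. Pcolce rose by 0.19, 0.78, and 0.60 in the order DZ, adenine, and SAM. Adamts2 was at 6.31, 6.24, and 6.27 log2 CPM in CTL, 6.55, 6.58, and 6.55 under DZ, 6.87, 6.92, and 6.71 under adenine, and 6.49, 6.44, and 6.30 under SAM, where SAM 3 overlapped with CTL and the difference of 0.14 was not called. It was called without SAM 3 (0.19), without Adenine 3, and with plain read totals (0.26).

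Of the 5 cross-linking oxidases, 4 rose and Loxl4 fell under both adenine and SAM. Of all genes, 30.6% rose and 31.0% fell under adenine, and 33.7% and 35.7% under SAM. Lox was at 9.85, 9.83, and 9.84 log2 CPM in CTL, 9.70, 9.83, and 9.78 under DZ, 10.52, 10.55, and 10.41 under adenine, and 10.22, 10.27, and 10.24 under SAM. Its log2 fold change was 0.65 for adenine, 0.40 for SAM, and an uncalled -0.068 for DZ. Loxl4 was at 6.74, 6.75, and 6.82 log2 CPM in CTL, 6.90, 6.93, and 6.95 under DZ, 5.52, 5.53, and 5.49 under adenine, and 5.37, 5.34, and 5.32 under SAM. Its DZ dishes were the highest, and its adenine and SAM dishes had 0.419 and 0.372 times the CTL level (limma adjusted p = 6.48e-14 and 5.96e-15). Loxl1, needed for elastic fibres, was the oxidase that fell under DZ: it was at 8.93, 8.88, and 8.94 log2 CPM in CTL, 8.32, 8.29, and 8.34 under DZ, 9.46, 9.34, and 9.36 under adenine, and 9.20, 9.20, and 9.28 under SAM (DZ log2 fold change -0.60 ± 0.035, limma adjusted p = 2.31e-09). Loxl2, an oxidase of basement membranes, was at 6.32, 6.21, and 6.23 log2 CPM in CTL, 6.12, 6.17, and 6.12 under DZ, 7.28, 7.29, and 7.17 under adenine, and 6.84, 6.88, and 6.82 under SAM. Its log2 fold changes were 0.99 under adenine and 0.59 under SAM, both called. Its DZ value of -0.12 was not called, except with median centring (-0.13) or an FDR of 0.05. Loxl3 was at 6.15, 6.03, and 6.07 log2 CPM in CTL, 6.37, 6.49, and 6.45 under DZ, 6.69, 6.65, and 6.61 under adenine, and 7.18, 7.21, and 7.21 under SAM. The groups of Loxl3 did not overlap, and SAM dishes were the highest (2.17-fold). Lox, Loxl2, Loxl3, Loxl4, Plod3, Col18a1, and Col5a1 overlap genes on the opposite strand that are also in the table. The partners of Loxl2 (6.62 log2 CPM over all dishes) are Gm27177 at 5.95 and R3hcc1 at 5.58 log2 CPM, and that of Loxl3 is Htra2 at 6.21. The library kit kept the strand, but the strand setting of the counting was not given in the sources used here. Pcolce and Col1a2 overlap listed genes on the same strand, which strand cannot separate. These are Fbxo24 at 1.43 log2 CPM for Pcolce and Gm43921 at 1.18 for Col1a2.

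Adenine and SAM were given at the same dose for the same time and could be compared directly. In this comparison 31 of the 38 genes were lower under SAM than under adenine and 2 were higher, when 22.0% of all genes were lower and 20.8% higher (42.7% called in either direction). The median difference of the 38 genes, SAM minus adenine, was -0.40 on the log2 scale, beside 1.16e-04 over all genes. The largest difference was that of Col6a4 (-0.97 ± 0.088, limma adjusted p = 3.12e-07), followed by Col5a3 (-0.81), Col11a2 (-0.80), and Col3a1 (-0.68 ± 0.053, limma adjusted p = 6.44e-08). Col1a1 and Col1a2 were lower by 0.48 and 0.50 log2 units, and Serpinh1 was at -0.41. Col7a1 (0.57) and Loxl3 (0.55 ± 0.039, limma adjusted p = 2.41e-08) were the genes higher under SAM. For P4ha3, Col8a1, Col8a2, Col11a1, and Plod3 the difference was not called. Their 95% intervals were 0.11 to 0.71, 0.060 to 0.28, -0.66 to -0.082, -0.31 to -0.026, and -0.18 to -0.032, which leave room for differences of those sizes. These intervals exclude 0, and with an FDR of 0.05 these genes were called too. Of these, Col8a1 was near the threshold (0.17, limma adjusted p = 0.0107). It was called with plain read totals (0.23), median centring (0.18), robust empirical Bayes, voom, or a replicate block. It was also called with genes under a mean of 3 log2 CPM removed, and without CTL 2, DZ 1, or SAM 3. P4ha3 and Col8a2 were called without DZ 1, with voom, and in a model of the groups compared alone. Col11a1 was called without Adenine 3, and Plod3 without Adenine 3 or SAM 3. With plain read totals as the scale, the calls of Plod1, Bmp1, Loxl1, and Col6a3 were lost, and that of Col6a3 also without Adenine 2.

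**Figure D4:**
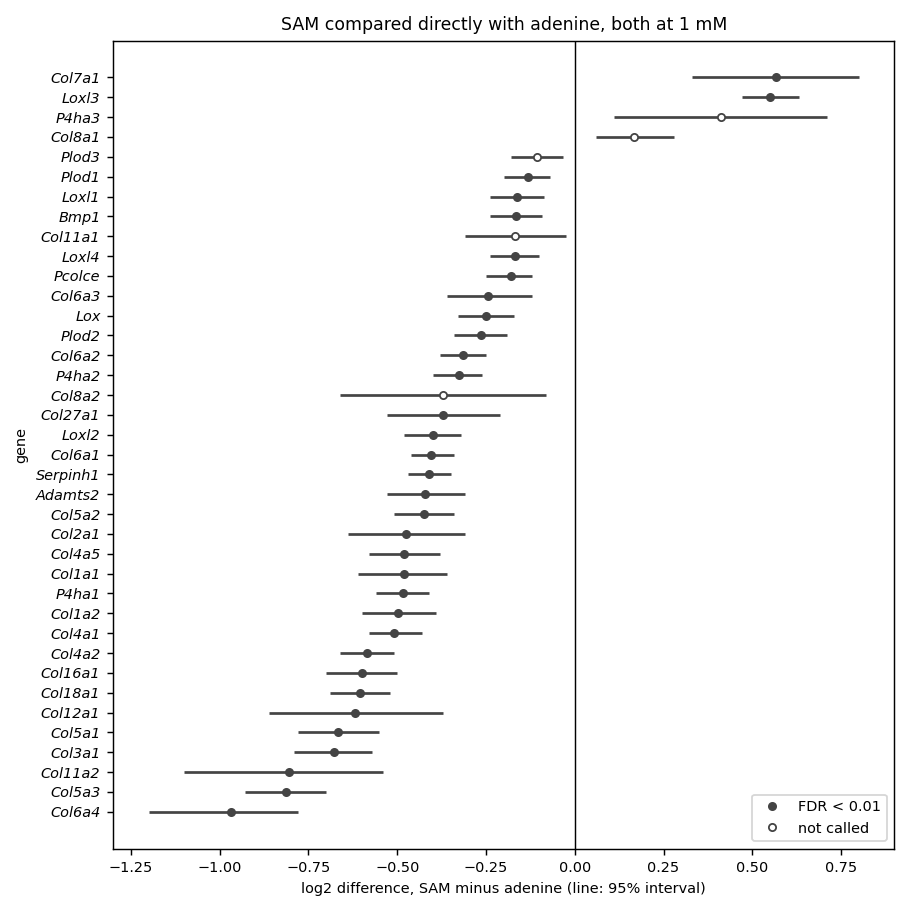
Difference in log2 CPM between SAM and adenine dishes (x axis) for each of the 38 genes (y axis, in order of the difference), with 95% intervals from limma as lines and filled circles for genes called at an FDR of 0.01. Circles of 34 genes lie to the left of 0, and Col7a1 and Loxl3 are the filled circles to the right.

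The 23 collagen genes together took 1.59% ± 0.037 (SD, n = 3) of the reads on listed genes in CTL, 2.01% ± 0.086 under DZ, 2.87% ± 0.13 under adenine, and 2.13% ± 0.085 under SAM. The individual dishes were at 1.63%, 1.58%, and 1.55% in CTL, 1.92%, 2.08%, and 2.05% under DZ, 2.91%, 2.97%, and 2.72% under adenine, and 2.18%, 2.17%, and 2.03% under SAM. No treated dish overlapped with CTL, and DZ and SAM dishes overlapped with each other. The mixture of types differed as well. Type I genes made up 47.4% of collagen reads in CTL, 52.5% under DZ, and 45.2% under both adenine and SAM. Type III went from 2.83% in CTL to 6.49% under adenine and 5.70% under SAM, with 2.70% under DZ. Type VI was at 11.6%, 12.2%, 18.5%, and 20.1% in the order CTL, DZ, adenine, and SAM, whereas type V was at 26.1%, 22.0%, 17.8%, and 17.4%. These shares are of reads and so also depend on transcript length.

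**Figure D5:**
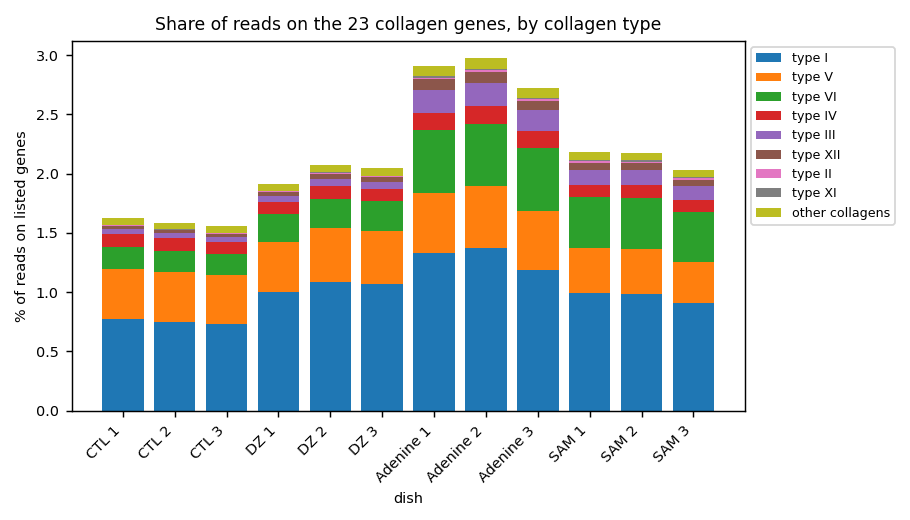
Percent of reads on listed genes (y axis) that fell on the 23 collagen genes in each of the 12 dishes (x axis), stacked by collagen type. Bars reach 1.55% to 1.63% in CTL and 2.72% to 2.97% under adenine, with wider type III and type VI segments in adenine and SAM dishes.

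Levels of different genes were compared per length, as CPM divided by the length of the canonical transcript in kilobases. Col1a2 (845 ± 14, SD, n = 3), Col1a1 (554 ± 19), Serpinh1 (522 ± 8.3), Col5a2 (435 ± 6.3), and Col6a1 (293 ± 5.4) were the highest of the 38 genes in CTL. Neighbours in this order differed by more than their SD, least so Col1a1 and Serpinh1. Under adenine Col6a1 stood at 839 ± 12 and under SAM at 634 ± 3.7, behind Col1a2 and Col1a1 in both, and Col5a2 was at 407 ± 13 and 304 ± 14. The ratio of Col1a1 to Col1a2 per length was 0.656 ± 0.014 in CTL, 0.821 ± 0.018 under DZ, 0.717 ± 0.012 under adenine, and 0.725 ± 0.021 under SAM. The ratio of Col3a1 to Col1a1 was 0.151 ± 0.0011 in CTL, 0.115 ± 0.0036 under DZ, 0.346 ± 0.011 under adenine, and 0.302 ± 0.014 under SAM. That of Col5a2 to Col5a1 was 3.97 ± 0.12, 3.35 ± 0.074, 2.10 ± 0.035, and 2.48 ± 0.10. For these last ratios no group overlapped with CTL.

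The helix that these enzymes act on was counted in the translated coding sequences of GENCODE vM39. Only unbroken runs of Gly-X-Y triplets of a minimum length were counted, and triplets in shorter runs were left out. Col1a1 held 355 Gly-X-Y triplets, 338 of them in 1 unbroken run, and Col3a1 held 357 with a run of 344, whereas Col4a1 held 436 in 22 runs and Col6a1 109 in 3. Proline, the residue that prolyl 4-hydroxylase modifies at position Y, filled 35.2% of those positions in Col1a1, 42.6% in Col3a1, 47.7% in Col4a1, and 30.3% in Col6a1.

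Genes of the same pathway outside the list were grouped by function. Their counts stand beside 22.6% of all genes higher and 23.4% lower under DZ, 30.6% and 31.0% under adenine, and 33.7% and 35.7% under SAM, and a list of 6 to 14 genes can lie near these shares, as the 4 of 12 export genes higher under SAM do. Of 13 other collagen enzymes in the table, 8 rose and 2 fell under DZ, 10 rose and 0 fell under adenine, and 9 rose and 0 fell under SAM. P4hb, the partner subunit of prolyl 4-hydroxylase, had log2 fold changes of 0.18, 0.60, and 0.52. Fkbp10, a folding factor, had 0.21, 0.50, and 0.41, and Colgalt1, a collagen galactosyltransferase, had 0.31, 0.30, and 0.30, all called. Of 12 procollagen export genes, 1 rose and 4 fell under DZ, 8 rose and 1 fell under adenine, and 4 rose and 2 fell under SAM. In this list Sec24d, a coat protein of export vesicles, rose by 0.46 under adenine and Sar1a, the GTPase of the coat, by 0.37, while Mia2, a cargo receptor, fell by 0.25 on the log2 scale under adenine and by 0.67 under SAM.

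Of 6 collagen receptor and uptake genes, 1 rose and 2 fell under DZ, 3 rose and 0 fell under adenine, and 4 rose and 2 fell under SAM. Itga11, a fibroblast collagen integrin, rose by 1.46 (adenine) and 1.22 (SAM), and the collagen receptor kinase gene Ddr2 fell by 0.91 on the log2 scale under SAM whereas Ddr1 rose by 0.51. Of 7 collagen-binding proteoglycans, which regulate fibril growth, 5 rose and 0 fell under DZ, 7 rose and 0 fell under adenine, and 4 rose and 1 fell under SAM. Omd had log2 fold changes of 0.40, 2.76, and 2.37, Fmod had 1.91, 2.69, and 2.13, and Prelp had 1.52, 1.88, and 2.74. Of 14 elastic fibre genes, 10 rose and 2 fell under DZ, 12 rose and 2 fell under adenine, and 9 rose and 5 fell under SAM. In the order adenine and SAM, the log2 rises were 2.22 and 2.24 for Fbln1, 1.7 and 1.46 for Mfap5, and 1.47 and 0.73 for Fbn2. Fn1, the fibronectin gene on whose matrix collagen is laid down, had log2 fold changes of 0.33 under DZ, -0.43 under adenine, and -1.58 under SAM, all called.

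The 38 genes also moved together between dishes of a group, so they are not independent of each other. DZ 1 was the lowest of its group for 33 of the 38 genes (36.4% of all genes), Adenine 3 for 33 (34.4%), and SAM 3 for 25 (39.9%), and CTL 1 was the highest of its group for 30 (31.7%).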

How the data were processed

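RNA of 12 dishes (3 each of CTL, DZ, adenine, and SAM) was sequenced. Per the labels and methods, the authors trimmed reads with Trimmomatic, aligned them to GRCm39 with HISAT2 under GENCODE vM27, quantified transcripts with StringTie, kept genes of at least 1 CPM in all samples, and normalized with edgeR. The values of the table, as deposited, are log2 CPM on scaled library sizes. The method behind the scaling factors was not given in the sources used here.

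The deposited log2 values were tested with limma 3.58.1 in R 4.3.3 (lmFit, contrasts, eBayes with trend) in 1 joint model of 12 libraries, with Benjamini-Hochberg adjustment over 12591 genes and an FDR of 0.01. Whole reads were recovered by taking off the prior count of 2, and 100% of values came within 0.05 of a whole read. They gave depth and read shares. As StringTie derives such reads from coverage, they are estimates. The scripts were tested on simulated data.

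Names, positions, transcript lengths, promoters (250 bases before the canonical start), and Gly-X-Y triplets (from translated coding sequences, since no protein table was used here) come from GENCODE vM39, in which 12575 identifiers were found. Python 3.11.15, numpy 2.4.6, pandas 2.3.3, and matplotlib 3.10.9 were used.

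The members and lists were chosen with earlier results of these data known. Values of every dish are given for Col1a1, Col1a2, Col3a1, Serpinh1, Lox, the adjacent gene pairs in the table, and, in each role group, the called genes with the largest rise and fall in each comparison with CTL. Pathway lists name up to 3 genes of smallest adjusted p. Fn1 and the other markers were named after their values were seen. Lists were described by counts and medians, without a set test. Alternatives were other variance models, filters, a pseudocount of 1 CPM, scalings, thresholds, voom, a model of the groups compared alone, a replicate block, and leaving out each dish.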

Additional observations from a re-analysis of the deposited data

How the results depend on the processing

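When a log2 fold change of at least 0.5 was also required, 9 of the 38 genes were called under DZ, 26 under adenine, and 20 under SAM. For SAM against adenine it was 12. These stand in place of 22, 36, 32, and 33. Shares of all genes called were not counted in the alternative settings, so their counts can be set only beside those of the main setting. With plain read totals as the scale, the median of all genes moved from -0.015 to 0.11 under SAM and from -0.0030 to 0.059 under adenine, and the median of the 38 genes moved to 0.785 under adenine, 0.479 under SAM, and -0.341 for SAM against adenine. Relative to that shift the direction of the list was kept. In the same setting 29 genes rose and 7 fell under SAM, and P4ha1 (0.0035, limma adjusted p = 0.932) and Plod2 (0.11, limma adjusted p = 0.0087) had the opposite sign. With genes under a mean of 3 log2 CPM removed, 36 genes were tested and their median under adenine was 0.787. With each dish left out in turn, 18 to 23 genes were called under DZ, 35 to 37 under adenine, 29 to 35 under SAM, and 32 to 36 for SAM against adenine.

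The sources used here do not say whether dishes with the same replicate number were handled together. After subtraction of group means, such dishes correlated across genes with Pearson r of -0.142 to 0.181. Correlations between dishes with different numbers were not computed, so these values do not settle whether the dishes were paired. A replicate block gave 21, 36, 33, and 34 called genes in the order DZ, adenine, SAM, and SAM against adenine. The lowest count of a listed gene was 46 reads, but the filter of at least 1 CPM sets this minimum, so it does not measure whether depth was limiting. Collagens below 1 CPM in any sample could not be examined.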
